A study of Mus musculus with 17 samples.

Results

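Pancreatic islets were compared after 48 h and after 24 h of culture, the second day after their isolation. The comparison takes the 6 arrays labelled 48 h and the 6 labelled 24 h, 12 of the 17 arrays of the study, and every gene that a probe set with 1 gene symbol represents, 18193 genes in all. The mice were of the C57BL/6 strain and untreated, and their age and sex are not given in the sources used here. Islets of 4 mice were pooled into each of 6 batches, and each batch was split between times in culture, so that a 48 h array and a 24 h array of the same number hold islets of the same mice. All islets were kept at 37°C in F12K medium with fetal bovine serum, and each portion was read on 1 Affymetrix mouse whole-genome array after amplification of its RNA. Replicates are pools of mice, so the spread between arrays is the spread between pools. The 5 arrays at 0 h, harvested without culture, entered the fit only for the estimate of the spread, and their means are printed beside the others for orientation.

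Islets are clusters of hormone-secreting cells, mostly insulin-producing beta cells, that are threaded by a dense capillary bed and hold resident macrophages and a few mesenchymal cells around the vessels. Isolation frees them from the exocrine pancreas with fragments of acinar tissue attached and cuts their blood supply. In culture, endothelial cells are known to be lost over days, and fibroblast-like cells are known to spread where islets attach. Interferon-stimulated genes, which encode antiviral proteins and the machinery of antigen presentation, are switched on by the interferons that stressed or infected cells release.

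Levels are log2 values after robust multi-array averaging (RMA), the scale on which all differences are given, and each gene is represented by its probe set of highest mean. Where 3 levels stand together they are the lowest, the median and the highest of 6 arrays. A level under 3.52, the median of the whole table, was not separated from background. Differences carry the standard error (SE) of limma's fit, and a gene passed at a Benjamini-Hochberg adjusted p under 0.05 over 45037 probe sets. The arrays matched their tissue label: Ins2, an insulin gene, lay between 13.70 and 13.76 at 24 h and between 13.57 and 13.75 at 48 h, against a highest value of 13.81 in the whole table.

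Of 4 measures of array quality, 0 passed at an adjusted p under 0.05, whether arrays were taken as separate or paired by batch. The nearest was the median of an array, lower at 48 h in 5 of 6 batches and equal to 4 decimals in batch 4, by 0.025 in the mean (exact two-sided paired permutation p = 0.0312, the smallest 6 pairs can give, 0.125 adjusted over the 4). Actin signal dropped from its 3' to its 5' probe sets, as it does more in degraded RNA, by 2.10 ± 0.15 (SD, n = 6) on the 24 h arrays. On the 48 h arrays the drop was 2.02 ± 0.13 (SD, n = 6), with an exact two-sided permutation p of 0.314 (0.525 adjusted) and, paired by batch, of 0.0938 (0.188 adjusted). It was smaller at 48 h in 5 of 6 batches. The 24 h array of batch 5 stood apart: its median correlation with the other arrays of its time was 0.988, and the other 5 arrays lay between 0.992 and 0.994. Signal from attached acinar tissue also moved. Over the 13 measured acinar proteases and inhibitors, the mean level lay at 3.87, 5.50 and 6.76 at 24 h and at 3.52, 3.77 and 5.37 at 48 h. In 5 of 6 batches the 48 h array was the lower one, and in batch 5 the higher one. The part of acinar signal in the results that follow was not tested.

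Few probe sets passed. Of 45037 probe sets, 200 passed (0.444%), 120 of them higher and 80 lower at 48 h, and 5146 had an unadjusted p under 0.05. The split depended on scaling: 73.4% of the calls were higher when each array was centred on its median, 46.2% when the arrays were quantile-normalized again, and 60.0% as deposited. Without the 24 h array of batch 5 the calls came to 263, of which 47.9% were higher, and without the 48 h array of batch 2 to 102. By gene, 138 passed (0.759% of 18193), 78 higher (0.429%) and 60 lower (0.33%). At an unadjusted p under 0.05, 8.1% of all genes were higher and 6.07% lower, the shares to set beside each list count below. All 78 genes that rose were higher at 48 h in 6 of 6 batches, and 58 of the 60 that fell were lower in 6 of 6. The median size of a passing difference was 0.59 among rises and 0.65 among falls, and 11 rises and 9 falls reached 2-fold.

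**Figure D1:**
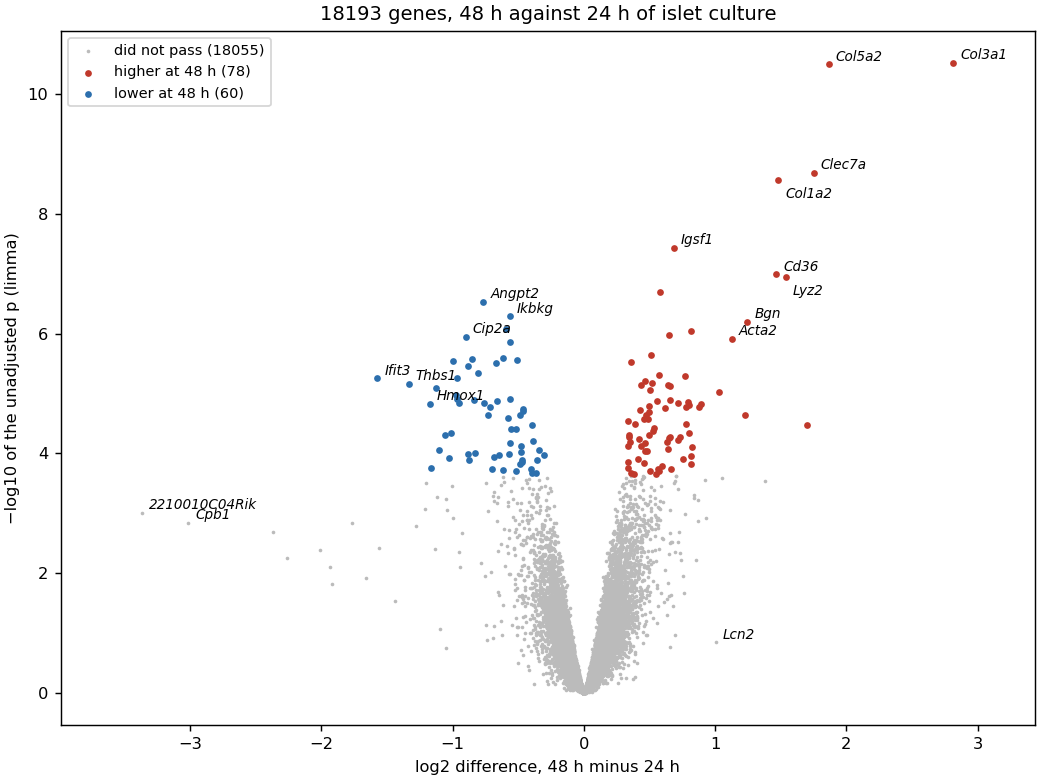
Each point is 1 of 18193 genes, with the log2 difference between 48 h and 24 h on the horizontal axis and the negative log10 of limma's unadjusted p on the vertical axis; red points passed higher (78 genes) and blue points passed lower (60 genes). Col3a1 and Col5a2 stand at the upper right, and acinar genes such as Cpb1 lie far to the left without passing.

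A few genes of fibrillar collagen and of fibroblast-like cells rose, among them the 2 largest rises of all. Type III collagen (Col3a1), a fibrillar collagen of loose connective tissue, rose 7.04-fold. With it rose the type V chain Col5a2 (3.64-fold), which sets the width of collagen fibrils, the type I chain Col1a2 (2.79-fold), the small matrix proteoglycan biglycan (Bgn, 2.37-fold) and smooth muscle actin (Acta2, 2.18-fold), the marker of myofibroblasts and pericytes. In a bulk sample more cells of a type and more RNA per cell cannot be told apart.

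Col3a1 lay at 4.59, 5.07 and 5.27 at 24 h and at 7.40, 7.91 and 8.49 at 48 h. Every 48 h array was thus above every 24 h array by more than the range of the 24 h group. The difference was 2.82 ± 0.20 (adjusted p = 7.32e-07 by limma), and the mean at 0 h was 6.13. Its other probe set differed by 0.48 and passed as well. Col5a2 lay at 4.43, 4.81 and 5.11 and then at 6.06, 6.72 and 6.97, a difference of 1.86 ± 0.13 (adjusted p = 7.32e-07). Its groups did not overlap either, and its mean at 0 h was 3.99. Col1a2 went from 4.01, 4.22 and 4.37 to 5.06, 5.76 and 6.10, a difference of 1.48 ± 0.14 (adjusted p = 3.05e-05), on 1 of its 3 probe sets. The other probe sets of Col1a2 differed by 0.55 (adjusted p = 0.0619) and -0.01 and did not pass. Their means were under the background level at both times.

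Acta2 lay at 4.82, 5.33 and 5.56 at 24 h and at 6.03, 6.41 and 6.85 at 48 h, without overlap (1.13 ± 0.16, adjusted p = 0.00288 by limma). The 48 h levels were still under the 0 h mean of 6.92. Bgn went from 4.16, 4.72 and 4.99 to 5.50, 5.99 and 6.16, again without overlap (1.25 ± 0.17, adjusted p = 0.00238). Vimentin (Vim), the intermediate filament of mesenchymal cells, rose by 0.88 ± 0.15 (adjusted p = 0.0109) and on 3 of its 3 probe sets. Its arrays overlapped, because the 48 h array of batch 6 stayed at 6.61 while the 24 h arrays reached 6.64. Periostin (Postn), a matricellular protein of fibroblasts, rose by 0.64 ± 0.13 (adjusted p = 0.0284). This call was lost in 6 of 17 fits with 1 array left out (adjusted p up to 0.0752, without the 48 h array of batch 2).

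Few other matrix genes passed. Of 27 collagens and collagen-processing enzymes measured, 3 rose and 0 fell, with a median difference of 0.10 (the transmembrane collagen Col13a1, which fell, is not on the list), against -0.0019 over all 18193 genes. At an unadjusted p under 0.05, 9 of them were higher and 2 lower, where 8.1% of all genes were higher and 6.07% lower. Of 28 genes of contractile and mesenchymal cells, 5 rose and 0 fell, with a median of 0.04 and, at an unadjusted p under 0.05, 9 higher and 3 lower. The lowest difference was -0.35. This list shares Col3a1 and Col1a2 with the first. The other type I chain, Col1a1, had levels without overlap but an adjusted p of 0.0893 by limma, and its mean at 24 h was 3.10. The pericyte and smooth muscle markers Pdgfrb (-0.02), Rgs5 (-0.05) and Myh11 (-0.14) did not pass. Among 23 other matrix proteins, Bgn and Postn rose and thrombospondin 1 (Thbs1), an adhesive protein that activates TGF-beta, fell. Thbs1 lay at 4.87, 5.37 and 6.42 at 24 h and at 3.80, 4.21 and 4.52 at 48 h, so the groups did not overlap, and the difference was -1.33 ± 0.21 (adjusted p = 0.0079). Its mean at 0 h, 4.21, was close to that at 48 h.

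Macrophage genes were also among the large rises. Clec7a, the beta-glucan receptor dectin-1, rose 3.36-fold, lysozyme (Lyz2), a secreted bactericidal enzyme of macrophages, 2.90-fold, the scavenger receptor Cd36 2.75-fold and the pore-forming protein Mpeg1 2.04-fold. Of 27 macrophage and dendritic cell markers measured, 5 rose and 0 fell, with a median difference of 0.34. A further 10 were higher at an unadjusted p under 0.05, 15 in all, and 2 were lower, against 8.1% and 6.07% of all genes. The mean of the list was higher at 48 h in 5 of 6 batches. Clec7a and Cd36 are not on that list.

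Clec7a lay at 4.91, 5.25 and 5.58 at 24 h and at 6.61, 6.93 and 7.71 at 48 h, without overlap (1.75 ± 0.16, adjusted p = 3.05e-05 by limma). The 48 h array of batch 5 held the highest level, and its mean at 0 h was 5.38. Lyz2 went from 4.93, 5.20 and 5.81 to 6.49, 6.80 and 7.34, a difference of 1.54 ± 0.18 (adjusted p = 7.27e-04). Its near-identical neighbour Lyz1 differed by 1.70 ± 0.31 (adjusted p = 0.0162), a call lost without the 48 h array of batch 2 (0.0511). Probes of both lysozymes may detect either transcript, so they count as uncertain between the genes.

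Cd36 lay at 3.81, 4.19 and 4.81 at 24 h and at 5.32, 5.60 and 6.46 at 48 h (1.46 ± 0.17, adjusted p = 7.27e-04 by limma), and Mpeg1 at 6.39, 6.97 and 7.39 and then at 7.60, 7.87 and 8.55 (1.03 ± 0.17, adjusted p = 0.00896). Neither overlapped between times. The lysosomal membrane protein Laptm5 rose by 0.65 ± 0.11 (adjusted p = 0.0107), without overlap, on 1 of its 5 probe sets, of which the lowest differed by -0.29. The NADPH oxidase subunit Cybb rose by 0.57 ± 0.12 (adjusted p = 0.0462), but its adjusted p was 0.11 with the batch as a block, and the call was lost in 14 of 17 fits with 1 array left out. Pf4, a chemokine of platelets and macrophages (1.23 ± 0.22, adjusted p = 0.0127), and the leukocyte tetraspanin Cd53 (0.65 ± 0.11, adjusted p = 0.00792) also rose, both chosen after their values were seen. Cathepsin H (Ctsh), a lysosomal protease, rose by 0.73 ± 0.14 (adjusted p = 0.0209) as the only passing member of a list of 36 lysosomal genes, which does not hold Laptm5. That call was lost in 3 of 17 fits, with a highest adjusted p of 0.0609 without the 48 h array of batch 2.

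Several defining macrophage markers did not pass. Among them were Adgre1, the F4/80 antigen (0.20, adjusted p = 0.48 by limma), the receptor of macrophage colony-stimulating factor Csf1r (0.37, 0.289), Cd68 (0.32, 0.405) and the complement chains C1qa (0.48, 0.546) and C1qc (1.05, 0.0527). Itgam, Itgax, Mrc1, Cx3cr1 and Cd163 had means under 3.52 at 24 h, where no level is separated from background. Without batch 5, 4 members of the list rose, and the median was 0.27.

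**Figure D2:**
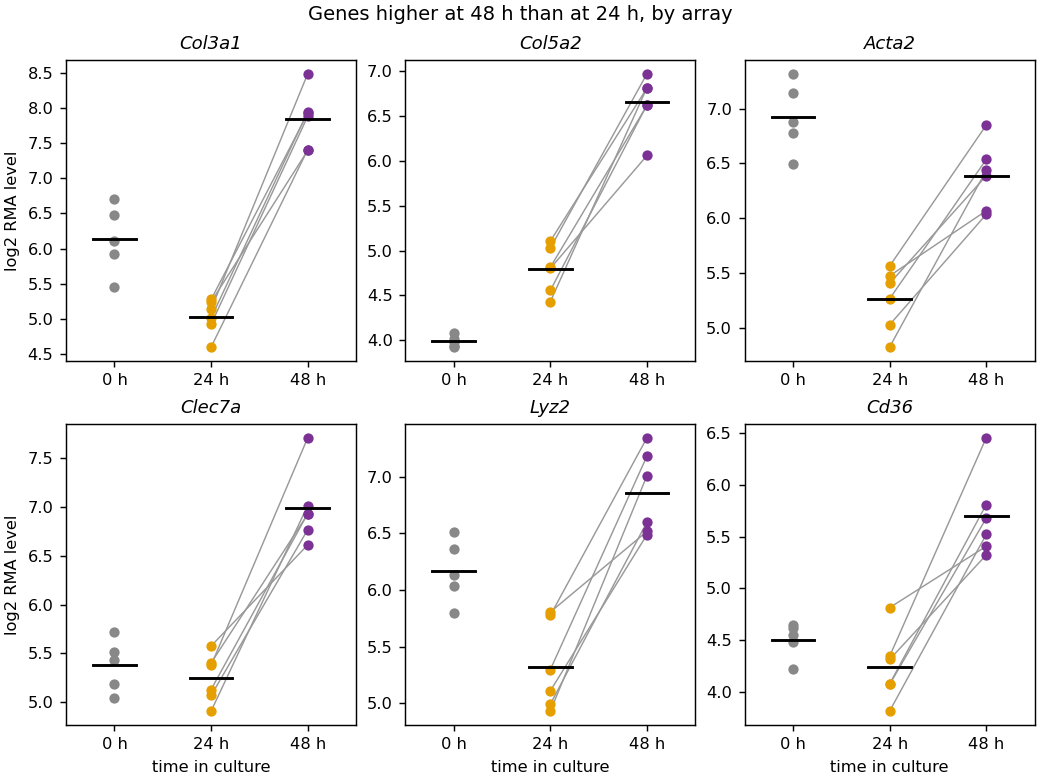
Log2 levels of 6 genes on each array, 5 without culture and 6 at each later time, with grey lines joining the 24 h and 48 h arrays of the same batch and black bars at the means. For each of Col3a1, Col5a2, Acta2, Clec7a, Lyz2 and Cd36 all 6 lines rise, and no 24 h array reaches a 48 h array. All 6 genes were named by a rule that required this lack of overlap.

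Class II antigen presentation, the display of peptides to helper T cells by dendritic cells and activated macrophages, went the other way. H2-Eb1 and H2-Aa, chains of the class II molecules, fell 1.75-fold and 1.85-fold. H2-Eb1 lay at 6.55, 6.88 and 7.15 at 24 h and at 5.80, 6.10 and 6.23 at 48 h, without overlap (-0.81 ± 0.13, adjusted p = 0.00683 by limma). Its mean at 0 h was 8.49, above all arrays of both later times. H2-Aa went from 7.56, 8.03 and 8.31 to 6.49, 7.24 and 7.55, with groups that touched without overlap (-0.88 ± 0.18, adjusted p = 0.0314). This call was lost in 8 of 17 fits with 1 array left out, with a highest adjusted p of 0.0743 without the 24 h array of batch 3. Of 11 class II genes measured, 2 fell and 0 rose, 5 were lower at an unadjusted p under 0.05, and the mean of the list was lower in 6 of 6 batches. The invariant chain Cd74, on both this list and the macrophage list, had levels without overlap and a difference of -0.61 (adjusted p = 0.127). Over the 7 members above background level the median was -0.61, and over all 11 it was -0.12.

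A group of interferon-stimulated genes fell. Ifit3, which binds viral RNA together with its relatives, fell 2.98-fold, Bst2 (tetherin), which holds budding viruses at the cell surface, 1.79-fold, and the guanylate-binding protein Gbp3 2.25-fold. With them fell Rtp4, an interferon-induced chaperone (2.04-fold), the immunoproteasome subunits Psmb9 (1.43-fold) and Psmb8 (1.29-fold) and the chemokine Ccl5 (1.96-fold). Interferon signalling acts on such genes through a short promoter element, the interferon-stimulated response element. Stretches of the promoters of Ifit3, Bst2 and Gbp3 are shown because all 3 genes fell and carry that element, searched as GAAANNGAAA on both strands. They are RefSeq sequences of GRCm38.p6, 5′ to 3′ on the strand of the gene and upstream of its start, with each match in capitals.

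Ifit3 (chr19:34583343-34583446, plus strand): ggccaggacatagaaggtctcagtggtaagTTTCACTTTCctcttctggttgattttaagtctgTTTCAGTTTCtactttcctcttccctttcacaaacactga
Bst2 (chr8:71537557-71537632, minus strand): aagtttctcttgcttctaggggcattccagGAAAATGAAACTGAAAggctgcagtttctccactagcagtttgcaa
Gbp3 (chr3:142559969-142560043, plus strand): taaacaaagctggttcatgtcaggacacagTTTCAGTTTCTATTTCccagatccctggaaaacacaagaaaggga

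Each stretch holds 2 matches. In Ifit3 they lie apart, between 156 and 113 bases before the start, and in Bst2 and Gbp3 they overlap by their shared GAAA. Among antiviral genes with a promoter in the RefSeq table, 10 of 19 held a match within 250 bases before and 50 after a start, and 6 of 7 interferon-inducible GTPases and 3 of 13 class I genes did, against 3.99% of the 27025 genes of that table. Of the matching genes on these lists, only Ifit3, Bst2 and Gbp3 passed. The others did not, with differences from -1.21 (Ifit1, adjusted p = 0.0927 by limma) to 0.10 (Erap1, 0.729). Some were close to 0, such as Oas3 (-0.09, 0.693) and Stat2 (-0.11, 0.801). A match is a run of letters and does not show that a factor binds there.

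Ifit3 lay at 6.17, 7.37 and 8.12 at 24 h and at 5.44, 5.66 and 5.83 at 48 h. The groups did not overlap, and the lowest 24 h level belonged to batch 5. The difference was -1.57 ± 0.25 (adjusted p = 0.00695 by limma), and the mean at 0 h was 5.55. Bst2 went from 5.43, 5.80 and 6.27 to 4.72, 4.90 and 5.33 (-0.84 ± 0.14, adjusted p = 0.0107), also without overlap, with a 0 h mean of 5.09. For both genes the 0 h and 48 h arrays overlapped. Gbp3 overlapped between times, as its 24 h array of batch 5 lay at 5.46 and its highest 48 h array at 5.92. Its difference was -1.17 ± 0.25 (adjusted p = 0.0438), and the call was lost in 12 of 17 fits with 1 array left out (adjusted p up to 0.107, without the 48 h array of batch 2). Rtp4 (-1.03 ± 0.21, adjusted p = 0.0352) overlapped as well, and its call was lost in 10 of 17 such fits, at most 0.0907 without the same array.

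Of 27 antiviral genes measured, 3 fell and 0 rose. At an unadjusted p under 0.05, 18 were lower and 0 higher, against 6.07% and 8.1% of all genes. With the batch as a block 8 fell, and without the 24 h array of batch 5, which had the lowest antiviral mean of the 24 h arrays, 10 did. The median difference was -0.31, and it stayed between -0.39 and -0.27 when 1 array was left out. The added genes under the block included Irf7, the transcription factor that amplifies the interferon response (-1.20 ± 0.27, adjusted p = 0.0567 without and 0.00939 with the block), and Oasl2 (-1.12 ± 0.27, 0.074 and 0.00133). Ifit2 differed by -1.77 and Ifit1 by -1.21, neither of which passed (0.119 and 0.0927). Isg20 and Cmpk2 were the members with a difference above 0 (0.22 and 0.07). Gbp3 was the passing gene among 10 interferon-inducible GTPases, whose median was -0.48. The count was 2 with the block and 0 to 4 when 1 array was left out, highest without the 24 h array of batch 5.

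Class I presentation shows peptides that the proteasome cuts to killer T cells. Psmb9, an immunoproteasome subunit that replaces a constitutive one under interferon, lay at 7.27, 7.57 and 7.74 at 24 h and at 6.88, 7.09 and 7.14 at 48 h, without overlap (-0.51 ± 0.08, adjusted p = 0.00492 by limma). The 48 h levels stayed above the 0 h mean of 6.37. Its partner Psmb8 fell by 0.37 with an SE of 0.08 (adjusted p = 0.0487), a call lost in 13 of 17 fits with 1 array left out (adjusted p up to 0.103, without the 48 h array of batch 6). Of 16 class I genes, these 2 fell and 0 rose, with a median of -0.24 and a lower mean in 6 of 6 batches. The heavy chains H2-K1 (-0.07) and H2-D1 (-0.18) and B2m (-0.33) did not pass. Among 34 constitutive proteasome subunits 0 passed in either direction, and the median was -0.10. At an unadjusted p under 0.05, 7 were lower, against 6.07% of all genes.

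Ccl5, which attracts T cells and macrophages, lay at 5.43, 6.07 and 6.23 at 24 h and at 4.35, 5.08 and 5.17 at 48 h, without overlap (-0.97 ± 0.16, adjusted p = 0.0107 by limma). It was the passing gene of a list of 34 chemokines and cytokines, which does not hold Pf4, the chemokine that rose. Cxcl10, another interferon-induced chemokine, differed by -1.28 and did not pass (adjusted p = 0.124). Both the mean at 24 h and the mean at 48 h of Ccl5 were above its 0 h mean of 3.94.

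Heme oxygenase 1 (Hmox1), which degrades heme and is a target of the oxidative stress factor NRF2, fell 2.26-fold. It lay at 5.72, 6.01 and 7.15 at 24 h and at 4.79, 5.08 and 5.42 at 48 h, without overlap (-1.18 ± 0.20, adjusted p = 0.0107 by limma), and its 0 h mean was 3.83. Of 31 NRF2 target and metal response genes measured, 4 fell and 0 rose. At an unadjusted p under 0.05, 14 were lower and 0 higher, against 6.07% and 8.1% of all genes. The median was -0.20, and the mean of the list was lower at 48 h in 6 of 6 batches. The others that fell were sulfiredoxin (Srxn1, -0.56 ± 0.10, adjusted p = 0.0178), which repairs peroxiredoxins, the pentose phosphate enzyme Pgd (-0.40 ± 0.07, 0.0162) and the glutathione transferase Gstm1 (-0.40 ± 0.09, 0.0494). Srxn1 and Pgd were each lost in 1 of 17 fits, without the 48 h array of batch 2 (0.0549 and 0.054). Gstm1 was lost in 13, at most 0.111 without the 24 h array of batch 2, and its adjusted p was 0.057 with the batch as a block. Without the 48 h array of batch 2, 1 gene of the list fell.

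Pirin (Pir), a nuclear iron-binding protein (-0.69 ± 0.14, adjusted p = 0.034 by limma), the glutathione peroxidase Gpx4 (-0.48 ± 0.10, 0.0296) and the epoxide hydrolase Ephx1 (-0.49 ± 0.09, 0.0127) fell too and were chosen after their values were seen. With the batch as a block the adjusted p was 0.0528 for Pir and 0.0564 for Gpx4, and leaving out 1 array lost Pir in 8 of 17 fits and Gpx4 in 7, at most 0.0806 and 0.0726, without the 24 h array of batch 2 and the 48 h array of batch 6. The reductase Cyb5r1 fell by 1.11 with an SE of 0.22 (adjusted p = 0.0288). Its levels of 7.54, 8.43 and 8.78 at 24 h and 6.31, 7.37 and 7.53 at 48 h touched without overlap. Leaving out 1 array lost the call of Cyb5r1 in 7 of 17 fits, at most 0.0724 without the 24 h array of batch 1.

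Several endothelial genes fell. Kdr, the main receptor of vascular endothelial growth factor, fell 1.78-fold. It lay at 7.01, 7.24 and 7.94 at 24 h and at 5.95, 6.56 and 6.92 at 48 h, without overlap (-0.83 ± 0.17, adjusted p = 0.0302 by limma), from a 0 h mean of 8.39. Of 25 endothelial markers, Kdr, the matrix protein Mmrn2 (-0.64 ± 0.13, 0.0317), the guidance receptor Robo4 (-0.48 ± 0.09, 0.0261) and the secreted factor Egfl7 (-0.47 ± 0.10, 0.0383) fell, and 0 rose. A total of 19 of the 25 were lower at an unadjusted p under 0.05, and 0 were higher, against 6.07% and 8.1% of all genes. Robo4 was at least 1.38-fold lower, since its 48 h arrays reached below the background level. Mmrn2 and Egfl7 each passed on a single probe set. Their other probe sets did not pass, with differences from -0.52 to -0.24 for Mmrn2 and from -0.42 to -0.24 for Egfl7.

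These 4 calls depended on single arrays. Leaving out the 24 h array of batch 3, the 48 h array of batch 2 or the 48 h array of batch 6 left 0 of them. The highest adjusted p was 0.0778 for Kdr, 0.0819 for Mmrn2 and 0.0741 for Robo4, each without the 48 h array of batch 2, and 0.0827 for Egfl7 without the 24 h array of batch 1. Egfl7 had an adjusted p of 0.0959 with the batch as a block. The median difference of the list, -0.37, stayed between -0.44 and -0.34 over the same fits. Pecam1 (-0.34) and Cdh5 (-0.38), junction proteins that define endothelium, did not pass, and Pecam1, with a mean of 3.25 at 24 h, was not separated from background.

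Other vascular genes, chosen after their values were seen, fell too. Angiopoietin 2 (Angpt2), which endothelial cells release when vessels are remodelled, lay at 5.86, 6.29 and 6.57 at 24 h and at 5.30, 5.50 and 5.63 at 48 h, without overlap (-0.77 ± 0.10, adjusted p = 0.00133 by limma). Its highest adjusted p with 1 array left out was 0.00624. The adhesion receptor Adgrl4 (-0.56 ± 0.08, adjusted p = 0.00312), Cyyr1 (-0.67 ± 0.10, 0.00508) and the adrenomedullin receptor subunit Ramp3 (-0.66 ± 0.11, 0.0107) fell without overlap and passed in each of the 17 fits. The 0 h means of Cyyr1 (7.60) and Adgrl4 (6.26) were above all their later arrays, and that of Angpt2 (5.20) was below its 24 h mean. Esm1, a proteoglycan of sprouting endothelium, fell by 1.01 with an SE of 0.19 (adjusted p = 0.0193) and overlapped between times. It was lost in 2 of 17 fits, at most 0.06 without the 48 h array of batch 2. Tmem204, a membrane protein of endothelial cells, fell by 0.97 with an SE of 0.15 (adjusted p = 0.00695) on 2 of its 3 probe sets.

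The basement membrane, the sheet of laminin and type IV collagen on which endothelial and islet cells rest, held 1 gene that fell. The laminin chain Lamb1 lay at 7.53, 7.77 and 7.87 at 24 h and at 6.86, 7.15 and 7.36 at 48 h, without overlap (-0.62 ± 0.09, adjusted p = 0.00492 by limma). The other 3 of its 4 probe sets did not pass, the smallest differing by -0.03. Their 24 h means, 2.82 to 3.22, were under the background level. Of 20 basement membrane genes 1 fell and 0 rose, with 7 lower and 0 higher at an unadjusted p under 0.05. Nid1 (-0.42, adjusted p = 0.0627) and Lamb2 (-0.26, 0.164) had levels without overlap and did not pass. The mean of the list was lower in 6 of 6 batches, while that of the list of collagens and collagen-processing enzymes was higher in 6 of 6. Over all genes 0.654% had levels lower at 48 h without overlap and 0.912% higher.

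**Figure D3:**
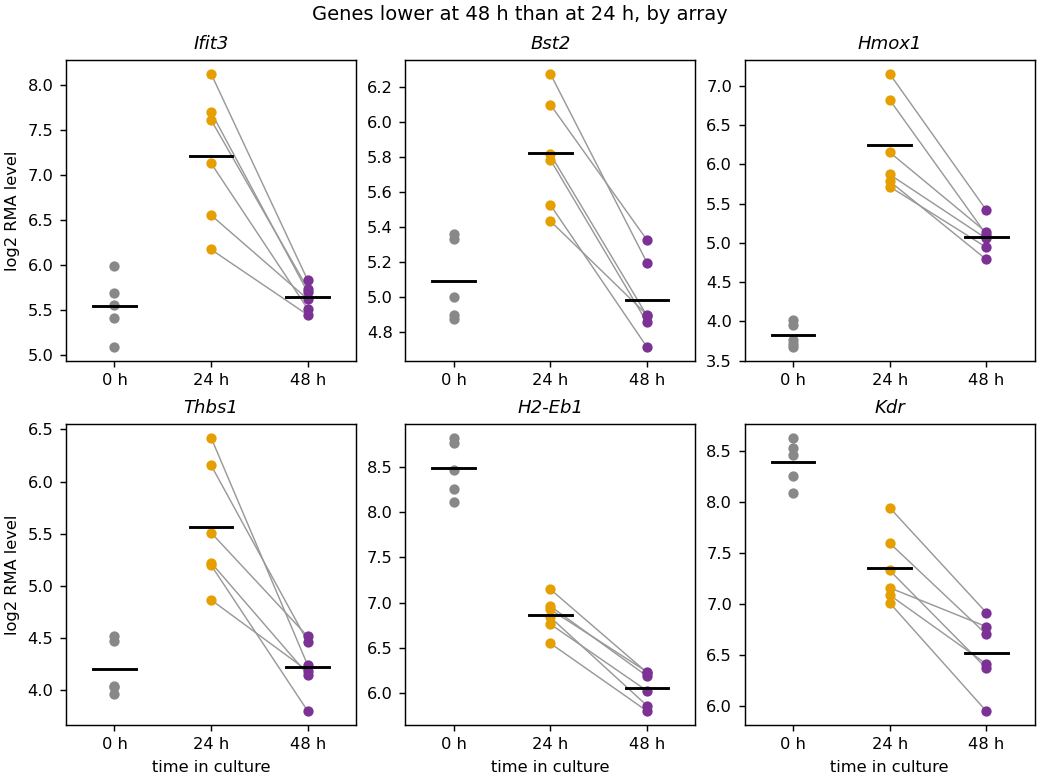
Log2 levels of 6 genes on each array, drawn as for the rising genes. The lines of all 6 batches fall for Ifit3, Bst2, Hmox1, Thbs1, H2-Eb1 and Kdr; H2-Eb1 and Kdr were highest at 0 h, while the other 4 were highest at 24 h.

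A set of genes of the entry route into the endoplasmic reticulum (ER) rose by small amounts. Proteins made for secretion pass through the translocon into the ER, where the oligosaccharyltransferase complex attaches sugar chains to them. The oligosaccharyltransferase subunits Rpn1 (0.34 ± 0.06, adjusted p = 0.0146 by limma), Rpn2 (0.48 ± 0.10, 0.0296) and Ddost (0.43 ± 0.08, 0.0115) rose, as did Sec63 (0.50 ± 0.08, 0.00866), the translocon partner that recruits the chaperone BiP. The prolyl isomerase Fkbp11 (0.79 ± 0.14, 0.0107) and the ribosome receptor Rrbp1 (0.34 ± 0.06, 0.0199) rose too. These 6 were the passing members of 34 genes measured, with 0 lower, 15 higher at an unadjusted p under 0.05 and a median of 0.13. The list was drawn up after these values were seen, so its count only describes it.

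Ddost lay at 10.56, 10.77 and 10.84 at 24 h and at 11.06, 11.14 and 11.26 at 48 h. Its groups did not overlap, and its 0 h mean of 11.13 matched the later level. Sec63 went from 8.43, 8.71 and 8.84 to 9.02, 9.22 and 9.28, and Rpn1 from 11.22, 11.42 and 11.49 to 11.60, 11.73 and 11.86. Neither overlapped. Of the probe sets of Rpn1, 4 of 6 passed higher, and another rose by 0.28 without passing (adjusted p = 0.109). The only one with a negative difference (-0.27) had means of 3.59 at 24 h and 3.33 at 48 h, around the background level. Rpn2 overlapped and was lost in 8 of 17 fits with 1 array left out (adjusted p up to 0.0731, without the 24 h array of batch 1), and Rrbp1 was lost in 2 (0.0549, without the 48 h array of batch 2). The calls of Sec63, Fkbp11 and Rrbp1 each rest on a single probe set. The other probe sets differed by 0.20 to 0.64 for Sec63 and by 0.33 to 0.34 for Rrbp1, and none passed. Those of Fkbp11, with 24 h means of 2.48 and 3.62, differed by -0.01 and 0.02.

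The chaperones that fold proteins inside the ER gave a similar shift without a call. Of 32 measured, 0 passed in either direction by limma, 13 were higher and 1 lower at an unadjusted p under 0.05, and the median was 0.18. The mean of the list lay at 9.84, 10.01 and 10.14 at 24 h and at 10.05, 10.17 and 10.36 at 48 h, higher in 6 of 6 batches. The largest differences were those of Sdf2l1 (0.62, adjusted p = 0.241), Dnajb11 (0.45, 0.123), Pdia6 (0.43, 0.132) and Creld2 (0.42, 0.239), while BiP itself (Hspa5) differed by 0.17 and Xbp1 by -0.19. The promoters of both lists were searched for 1 motif. The ER stress response element, searched as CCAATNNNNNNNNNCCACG on both strands, was present in 10 of 27 chaperone genes and in 0 of 25 genes of the entry route with a promoter in the RefSeq table, against 0.137% of all its genes. The chaperone genes with a match did not pass, and whether a match goes with a difference was not tested. The stretch of Pdia6 (GRCm38.p6, plus strand, 5′ to 3′, upstream of the start) is shown as an example of a match, in capitals.

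Pdia6 (chr12:17266461-17266539): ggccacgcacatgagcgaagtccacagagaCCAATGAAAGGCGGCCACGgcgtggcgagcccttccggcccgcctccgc

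Hormone genes and beta cell factors gave no call. Of 25 beta cell genes, 0 passed in either direction by limma, where 0.759% of all genes passed. At an unadjusted p under 0.05, 7 were higher and 0 lower, against 8.1% and 6.07% of all genes. The list mean lay at 8.84, 9.03 and 9.14 at 24 h and at 9.09, 9.14 and 9.16 at 48 h, higher at 48 h in 6 of 6 batches, with a median difference of 0.12. The lowest 24 h mean was that of batch 5. Without that array the median was 0.048 and 1 gene passed higher, and without batch 5 the median was 0.075 and 0 passed. The smallest rise of the mean within a batch was 0.019. Urocortin 3 (Ucn3), a peptide of mature beta cells, lay at 9.08, 9.33 and 9.67 and then at 9.68, 9.78 and 9.99. Its groups touched without overlap (0.45 ± 0.10, adjusted p = 0.0527), and its 0 h mean was 10.16. The glucose transporter Slc2a2 went from 11.25, 11.49 and 11.65 to 11.66, 11.77 and 11.99, likewise without overlap (0.30 ± 0.07, adjusted p = 0.0808). Pdx1, the pancreatic master transcription factor, overlapped widely (0.24 ± 0.11, adjusted p = 0.41). The long non-coding RNA Plut, transcribed beside Pdx1, rose by 0.77 with an SE of 0.12 (adjusted p = 0.00695), from 6.74, 7.18 and 7.35 to 7.55, 7.83 and 8.25, without overlap. It was chosen after its values were seen.

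The hormone genes Ins2 (-0.04 ± 0.05), Gcg, which encodes glucagon (-0.12 ± 0.11), Sst for somatostatin (-0.03 ± 0.24) and Ppy for pancreatic polypeptide (0.34 ± 0.34) did not pass, with adjusted p between 0.749 and 0.981 by limma. Ins2 lay near the highest value of the table, where the array may no longer separate levels, so its difference near 0 shows neither a change nor the lack of one. Ins1 and Mafa were not analysed here.

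The 2 largest differences in size among all genes belonged to acinar genes and did not pass. The trypsin family gene 2210010C04Rik differed by -3.37 ± 0.86 (adjusted p = 0.0977 by limma), with the carboxypeptidase Cpb1 next to it. Cpb1 differed by -3.01 ± 0.80 (0.118), the elastase Cela2a by -2.37 ± 0.66 (0.133) and the trypsinogen Prss2 by -1.66 (0.272). Of 13 acinar proteases and inhibitors, 8 were lower and 0 higher at an unadjusted p under 0.05, and the median was -1.66. Prss2 shows the pattern: 24 h levels of 4.76, 6.80 and 8.29 and 48 h levels of 4.03, 4.66 and 6.55 overlapped, with batch 5 lowest at 24 h and highest at 48 h. Without batch 5, 4 members fell and the median was -2.35.

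**Figure D4:**
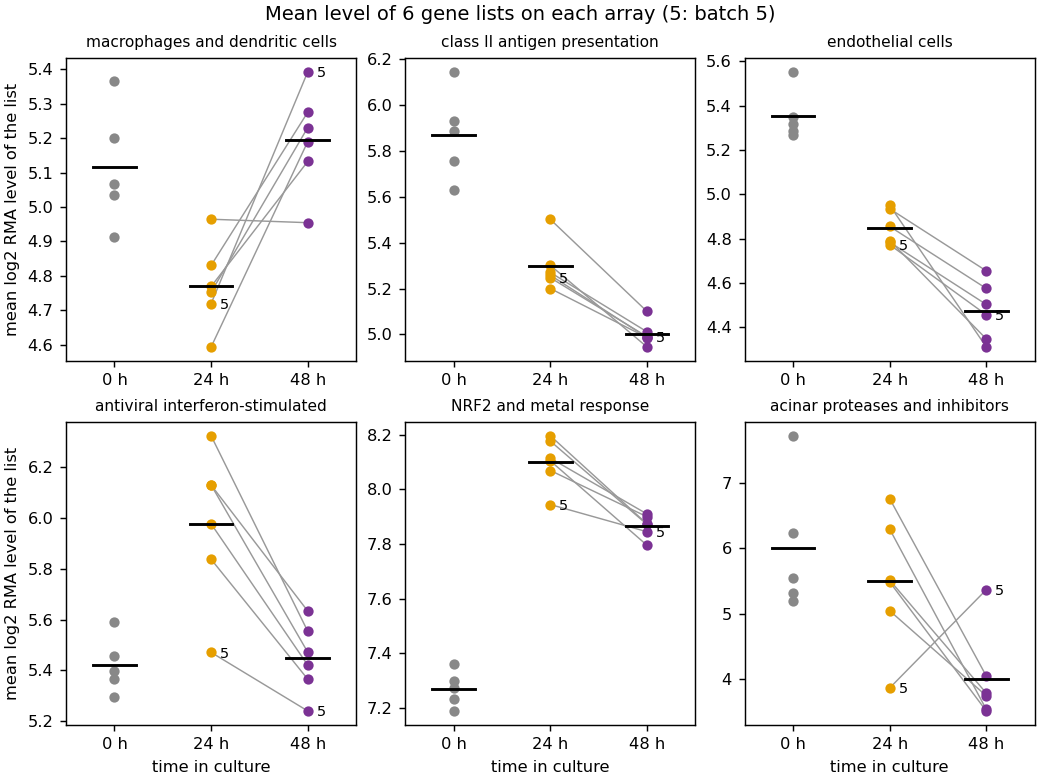
Mean log2 level of 6 gene lists on each array of the 3 times, with lines joining arrays of a batch, black bars at the means and the number 5 beside the cultured arrays of batch 5. The macrophage mean was higher at 48 h than at 24 h in 5 of 6 batches, the class II, endothelial, antiviral and NRF2 means were lower in 6 of 6, and the acinar mean was lower in 5 of 6 and higher in batch 5.

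Among the genes with the largest rises outside these groups was the carbonic anhydrase Car15, which lay at 8.77, 9.03 and 9.46 at 24 h and at 9.75, 9.91 and 10.28 at 48 h, without overlap (0.89 ± 0.15, adjusted p = 0.0107 by limma). Dact1, an antagonist of Wnt signalling, went from 5.97, 6.08 and 6.24 to 6.54, 6.93 and 7.23 (0.82 ± 0.11, 0.00253). P2ry14, a receptor for UDP-glucose, rose by 0.80 ± 0.14 (0.0109), and the complement subunit C8g by 0.80 ± 0.15 (0.0193), the latter lost without the 48 h array of batch 5 (0.0506). Neither of these overlapped, which the rule that named them required. The secreted peptide Tafa1 rose by 0.81 ± 0.17 (0.0403) and was lost in 12 of 17 fits, at most 0.0952 without the 48 h array of batch 4. Igsf1, an immunoglobulin-domain membrane protein chosen after its values were seen, went from 7.0, 7.12 and 7.24 to 7.58, 7.84 and 7.95, without overlap (0.69 ± 0.08, 3.35e-04).

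The falls outside these groups included the transcriptional cofactor Nrip2 (-1.13 ± 0.18, adjusted p = 0.00832 by limma), the actin-bundling protein fascin (Fscn1, -1.06 ± 0.20, 0.0203), the granule proteoglycan serglycin (Srgn, -0.99 ± 0.15, 0.00492), the transmembrane collagen Col13a1 (-0.97 ± 0.16, 0.00957) and Cip2a, an inhibitor of protein phosphatase 2A (-0.90 ± 0.13, 0.00284). The groups of all 5 were free of overlap, which the rule that named them required. The call of Fscn1, made on 1 of its 4 probe sets, was lost in 2 of 17 fits, at most 0.0549 without the 48 h array of batch 2. Srgn lay at 6.09, 6.56 and 7.16 at 24 h and at 5.35, 5.64 and 5.96 at 48 h, from a 0 h mean of 7.11. Cip2a went from 5.60, 6.03 and 6.42 to 4.88, 5.06 and 5.42, with a 0 h mean of 3.93. The other probe set of Cip2a differed by -0.16 and did not pass (adjusted p = 0.461 by limma). The semaphorin Sema7a (-0.88 ± 0.13, 0.00537) and Tmem140 (-0.88 ± 0.18, 0.0363) fell as well, Tmem140 with a call lost in 7 of 17 fits, at most 0.0856 without the 24 h array of batch 2.

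The fatty acid carrier Fabp4 and its regulator Pparg fell while Cd36, a fatty acid importer as well as a scavenger receptor, rose. Fabp4 lay at 7.09, 7.30 and 7.49 at 24 h and at 6.16, 6.44 and 6.66 at 48 h, without overlap (-0.85 ± 0.13, adjusted p = 0.00492 by limma), on 1 of its 4 probe sets. Another, with means of 6.41 at 24 h and 5.50 at 48 h, differed by -0.90 and did not pass (0.0527). The probe set with the highest difference, 0.07, had means of 2.97 and 3.03, under the background level. Pparg went from 6.88, 7.03 and 7.47 to 6.32, 6.54 and 6.79, also without overlap (-0.58 ± 0.10, 0.0138). Both lay above their 0 h means of 6.02 and 6.04. The sterol enzyme Fdft1 (-0.47 ± 0.10, 0.0366) was the passing gene of 24 in cholesterol synthesis and uptake, with an adjusted p of 0.0564 under the batch block and a call lost in 9 of 17 fits, at most 0.0938 without the 48 h array of batch 2.

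**Figure D5:**
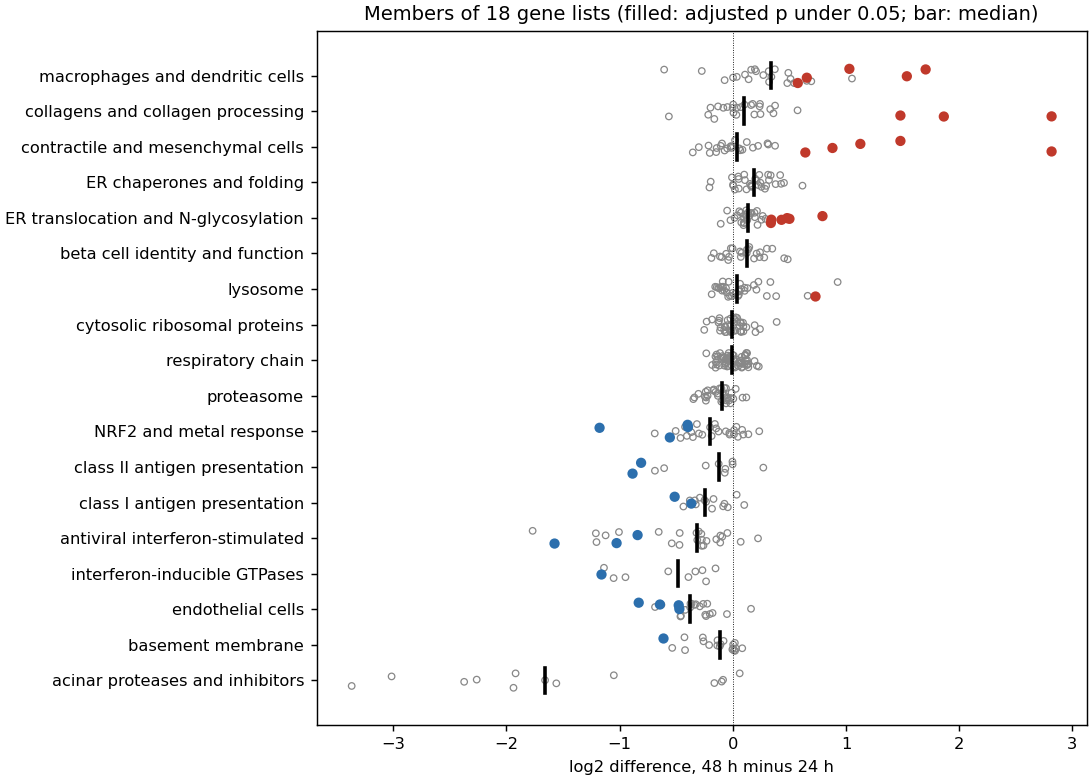
Log2 difference between 48 h and 24 h of each measured member of 18 gene lists; filled points passed (red higher, blue lower), open points did not, and black bars mark the list medians. The medians of the ribosomal and respiratory chain lists lie at 0, the endothelial median at -0.37, and the acinar median at -1.66 with open points only.

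Several large groups of basic cell functions held no gene that passed. Since 0.759% of all genes passed, lists of this size would hold few calls in any case. Their lack of calls therefore does not show that these functions were stable. At an unadjusted p under 0.05, 8.1% of all genes were higher and 6.07% lower. Of 44 cytosolic ribosomal proteins, 0 passed in either direction by limma, with 1 higher and 2 lower at an unadjusted p under 0.05, and the median was -0.0024. The 62 respiratory chain genes gave 0 calls, 2 higher and 3 lower unadjusted, and a median of -0.0071. Cell cycle and DNA replication genes (42) gave 0 calls, 1 higher and 3 lower unadjusted, and Mki67, the proliferation marker, differed by -0.03. Hypoxia response genes (24) gave 0 calls and 0 at an unadjusted p under 0.05. Of the stress genes that are high in culture, Trib3, a pseudokinase induced by ATF4, differed by -0.37 and Gsdma, a gasdermin, by -0.30, and neither passed. Lcn2, an acute phase protein, differed by 1.01 ± 0.65 (adjusted p = 0.594), with 48 h levels spread from 6.31 to 10.45.

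Of the 138 genes that passed, 3 (Mmp12, Pmaip1 and Acsm2, named here for that reason) had a mean level under the background level of 3.52 over both times, so their differences are of signals not separated from background. Of the 138, 82 had more than 1 probe set, and the split among probe sets is given above only for some of them. Where it is not given, other probe sets of a gene may not have passed. The calls of 71 genes held in each of the 17 fits with 1 array left out, and 114 were also made with the batch as a block. When only the 12 arrays compared were fitted, 95 of the 138 calls were made without that block and 82 with it.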

How the data were processed

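The deposited values are log2 levels, 1 per probe set and array, which the authors computed by RMA (per the submitters' processing notes, without a version). That they are base 2 was taken from their range, 1.55 to 13.81. RMA makes the arrays' distributions alike, which removes a change common to most genes, and it compresses differences of weak genes. RNA was amplified before labelling, per the labels' protocols. Of 45101 probe sets, 64 controls were left out. The platform annotation gave 1 symbol to 34945, several to 932 and none to 9160, and 34741 matched the RefSeq gene table by Entrez ID (0 symbols changed). The highest mean represented a gene with several probe sets, as 9010 genes had.

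limma 3.58.1 in R 4.3.3 fitted 1 mean per time to all 17 arrays (lmFit, eBayes), with Benjamini-Hochberg adjustment over 45037 probe sets, and was tested on simulated data. Pairing of batches comes from the study's design text: same-batch arrays at 24 h and 48 h correlated in their deviations from the group means at a median of 0.0578 (range -0.0819 to 0.274, 6 pairs), above 0.1 in 2, against a median of -0.0175 for 30 pairs of different batches. The batch was left out of the main model. Alternatives covered the block, scaling, filters, arrays fitted, weights and probe set rules.

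Members, the 55 gene lists (1204 of 1342 genes measured) and tests were chosen with earlier results of these data known, and the list of ER translocation and N-glycosylation was added after its values were seen. Named genes are the 15 largest rises and falls without overlap above the median level, up to 4 passing and the 2 highest members of a list, and a fixed set; others are marked in the text. Lists were described, not tested. Promoter windows are from RefSeq (GRCm38.p6).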

Additional observations from a re-analysis of the deposited data

Results flagged for a closer look

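Among 264 groups of 6 arrays (132 genes named in the text, at 24 h and at 48 h), 24 held an array farther from the other 5 than Dixon's 95% limit, a test that picks about 1 group in 20 by chance. Of these, 9 were the 24 h array of batch 5 and 5 the 48 h array of batch 5. On the 24 h array of batch 5, 2210010C04Rik lay at 2.10 (others 6.25 to 8.26), Lcn2 at 3.66 (6.55 to 7.75), Ifit1 at 3.43 (5.03 to 5.93), Oasl2 at 4.44 (5.70 to 6.34), Rtp4 at 6.33 (7.19 to 7.45), C1qa at 4.32 (5.57 to 6.05) and Cybb at 3.59 (3.92 to 4.10). The same array was high for Pf4, at 5.67 (4.31 to 4.59), and Ikbkg, at 8.37 (7.98 to 8.09). On the 48 h array of batch 5, 2210010C04Rik lay at 5.14 (2.04 to 3.03), Cpb1 at 5.45 (2.45 to 2.79), Cela2a at 5.44 (2.92 to 3.50), Clec7a at 7.71 (6.61 to 7.02) and Cx3cr1 at 3.90 (3.29 to 3.50).

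The other 10 were spread over batches. At 48 h, batch 6 was low for Vim, at 6.61 (7.43 to 7.75), and Nid1, at 4.93 (5.41 to 5.69), batch 4 was low for Cyb5r1, at 6.31 (7.32 to 7.53), and Rrbp1, at 9.88 (9.98 to 10.03), batch 3 was high for Irf7, at 4.97 (3.90 to 4.14), and batch 1 was high for Itgam, at 2.97 (2.51 to 2.67), and low for Fh1, at 11.24 (11.30 to 11.32). At 24 h, batch 4 was high for Hspa5, at 12.43 (12.20 to 12.28), batch 1 for Ramp3, at 6.13 (5.49 to 5.71), and batch 6 for Srxn1, at 8.57 (7.92 to 8.10).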

How the results depend on the processing

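The 200 calls (120 higher, 80 lower) became 321 with array weights (145 lower) and 234 with repeated quantile normalization (126 lower), while leaving out 1 array gave 102 to 263 calls (62 to 159 higher, 40 to 137 lower). The other alternatives gave 157 to 268. With the batch as a block, the replicate block that pairs the arrays of a batch, 224 passed (134 higher, 90 lower), and 158 when only the 12 arrays compared were fitted as well. That block lost 24 of the 138 gene calls and changed no other call of them, and where a named gene lost its call this stands beside it. Median centring gave 171 higher and 62 lower, and 182 of the 200 calls were shared. Leaving out batch 5, chosen after seeing the data, gave 177 calls, 86 higher and 91 lower, with 126 shared. Of the 138 genes, 0 changed direction under any alternative run. The mean of all probe sets of a gene in place of the brightest lost 29 of these calls, and leaving out the 48 h array of batch 2 lost 62. Ucn3 passed under 10 of the alternatives. The number of arrays, and for weak genes the background level, limit what could be called.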

Other observations

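Single genes named here, after their values were seen, belong to no list described above, and no theme is drawn from them. Echdc2, a mitochondrial hydratase relative, lay at 6.23, 6.53 and 6.81 (lowest, median and highest of 6 arrays) at 24 h and at 7.03, 7.18 and 7.25 at 48 h, without overlap (0.65 ± 0.09, adjusted p = 0.00278 by limma). The mono-ADP-ribosyl hydrolase Macrod1 rose by 0.58 ± 0.07 (adjusted p = 0.00116), also without overlap, with a highest adjusted p of 0.00455 when 1 array was left out. The transhydrogenase Nnt, which makes NADPH in mitochondria, rose by 0.35 ± 0.07 (0.0209) on 1 of its 3 probe sets, and its call was lost in 5 of 17 fits that left out 1 array, at most 0.0549 without the 48 h array of batch 2. Fumarate hydratase (Fh1), an enzyme of the citric acid cycle, rose by 0.49 ± 0.09 (0.0199), with an adjusted p of 0.0523 with the batch as a block and a call lost in 2 of 17 fits, at most 0.0544 without the 48 h array of batch 2. The lysosomal mannosidase Man2b1, not on the lysosomal list (0.39 ± 0.07, 0.016), and the chitinase-domain protein Chid1 (0.44 ± 0.07, 0.00792) rose without overlap, the former lost without the 48 h array of batch 2 (0.0529).

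Others were likewise named after their values were seen. The adhesion protein Cntnap2 lay at 8.04, 8.26 and 8.49 at 24 h and at 8.68, 8.75 and 8.87 at 48 h, without overlap (0.52 ± 0.08, adjusted p = 0.00778 by limma). The adenosine receptor Adora3 rose by 0.57 ± 0.09 (0.00695) and utrophin (Utrn), which links actin to the membrane, by 0.51 ± 0.08 (0.00461), each without overlap and in every fit that left out 1 array. Among the falls, the NF-kappaB adaptor Ikbkg lay at 7.98, 8.06 and 8.37 at 24 h and at 7.40, 7.51 and 7.66 at 48 h, without overlap (-0.57 ± 0.08, 0.00211), on 1 of its 6 probe sets.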
